A study of Oryza sativa Japonica Group with 4 samples.

Results

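Cytokinin is a plant hormone that promotes cell division and shoot growth and delays leaf ageing. It is perceived by receptor histidine kinases, which pass phosphate through histidine phosphotransfer proteins to response regulators. Type-B response regulators are transcription factors that switch on cytokinin-responsive genes. Type-A response regulators lack a DNA-binding domain, are themselves induced rapidly by cytokinin, and damp the signal as negative feedback regulators, so their transcripts are widely used as a readout of cytokinin signalling.

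The type-A family was examined here in messenger RNA of rice shoots (Oryza sativa, japonica subspecies). The members are 9 genes taken by identifier, OsRR1 to OsRR7, OsRR9 and OsRR10, out of 28491 genes listed in at least 1 library. The 2 groups were the DongJin cultivar as wild type and a modd mutant from the POSTECH rice mutant library (titled modd2), with 2 libraries each, all from unstressed soil-grown seedlings harvested at the 4-leaf stage. MODD is named in the series title as a negative regulator of abscisic acid (ABA) signalling. The labels do not give the kind or site of the mutation, and they name 1 mutant line only. Whether the replicates are separate plants is not stated, so the p-values cover only the variation between these libraries and that variation may be technical.

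Each library held from 5334814 to 5393972 expected reads, the estimated reads per gene summed over the table. MODD itself (LOC_Os03g11550) was at 36.9 and 46.6 FPKM in the modd-labelled libraries and at 20.95 and 21.3 FPKM in DongJin (edgeR adjusted p = 0.0272), which goes against the label if the mutation lowers the transcript, so the libraries labelled modd mutant are called modd-labelled throughout. FPKM scales a read count to transcript length and library depth. A log2 ratio below is the fitted log2 fold change, modd-labelled over DongJin. DongJin replicate 2 stood apart, at 44.3 on principal component 1 of the tested genes, against 9.38 for DongJin replicate 1 and -31.4 and -22.3 for the modd-labelled libraries. All 4 leaf markers were abundant (RBCS, LHCB1, LHCB5 and PSBS1, summing to 6151 FPKM or more in every library), as the tissue label says. The meristem markers OSH1 and OSH15 summed to at most 0.7 FPKM, the panicle marker OsMADS15 was listed in no library, and OsMADS14 was at 10.96 to 12.8 FPKM.

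No type-A regulator passed the test between the genotypes. Of the 9 genes, 6 had enough reads to be tested and 0 passed edgeR's quasi-likelihood test at an adjusted p under 0.05, where 0.837% of all 19365 tested genes passed (0.501% higher and 0.336% lower in the modd-labelled libraries). OsRR6 had the largest difference, about 1.9-fold higher in the modd-labelled libraries, and was the 1 member with an unadjusted p under 0.05, a level reached by 16.8% of all tested genes and in that direction by 8.40%. DESeq2 gave an adjusted p for 11856 of the tested genes and called 350 of them, 1.81% of all 19365. Of the 3 members with such an adjusted p (OsRR1, OsRR2 and OsRR4) it called 0. limma called 0 of all 19365 genes, so its 0 of 6 does not bear on the members alone. The median log2 ratio of the 6 tested members was 0.11, against 0.0047 for all tested genes, with 3 members above 0 and 3 below.

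The summed level of the 9 genes was 76.2 and 68.4 FPKM in modd-labelled replicates 1 and 2 and 65.4 and 67.7 FPKM in DongJin. The ranges of the groups did not overlap, but the gap between them was under 1 FPKM. FPKM values throughout are not scaled by the edgeR library factors (TMM), which the edgeR test uses. Those factors were 1.025 and 1.006 for modd-labelled replicates 1 and 2 and 1.007 and 0.964 for DongJin. The gap is small beside the spread of the factors, so the separation of these sums depends on the scale. The group means were 72.3 ± 5.45 and 66.6 ± 1.62 FPKM (SD, n = 2 each), a difference of 5.72 FPKM that ran from 1.86 without modd-labelled replicate 1 to 9.57 without replicate 2. In reads, the family took 99.9 and 90.9 CPM (reads scaled to library size alone) in the modd-labelled libraries and 88.2 and 94.5 CPM in DongJin, and there the groups overlapped. Below, shares of all tested genes with groups apart are counted in CPM that is also scaled by the TMM factors.

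**Figure D1:**
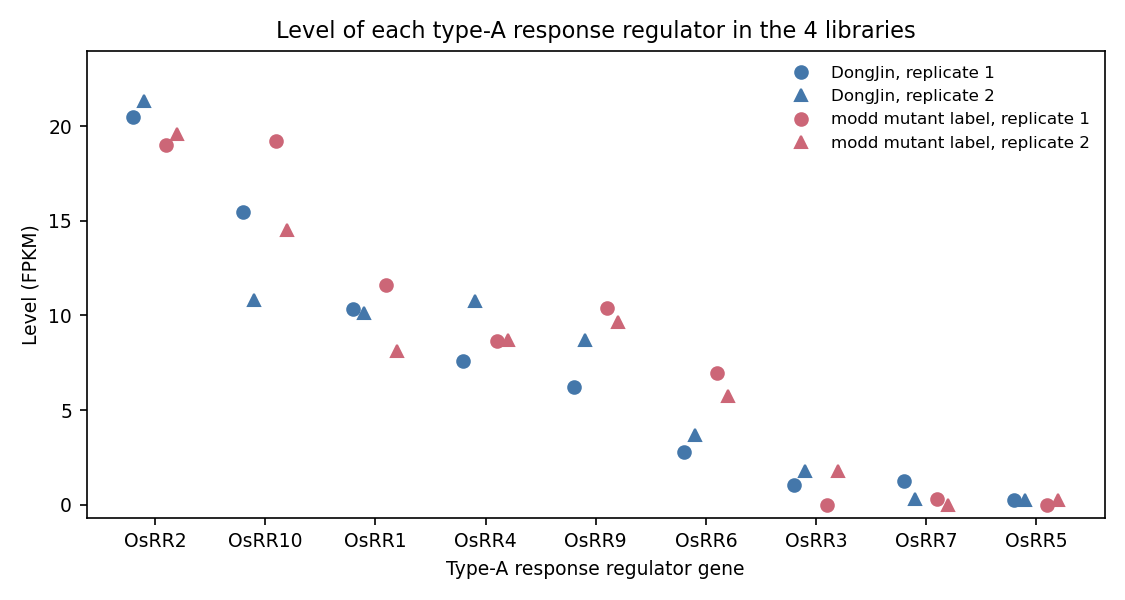
Level in FPKM (linear axis) of each type-A response regulator in each of the 4 libraries, with genes ordered by their mean. Points are single libraries, and a gene missing from a table is drawn at 0. OsRR6 is the member whose modd-labelled libraries (5.74 and 6.95 FPKM) lie farthest above those of DongJin (2.80 and 3.66 FPKM).

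By level per length, OsRR2 (mean 20.1 FPKM over the 4 libraries) was the most abundant member. It was followed by OsRR10 (15.02), OsRR1 (10.05), OsRR4 (8.93), OsRR9 (8.74) and OsRR6 (4.79). OsRR3 (1.16), OsRR7 (0.468) and OsRR5 (0.173) were near the limit of detection. OsRR6 and OsRR3 had separate ranges over the libraries (lowest OsRR6 value 2.80 FPKM, highest OsRR3 value 1.80 FPKM). Every other gene overlapped in range with the next in this order. Compared within each library, OsRR10 was always above OsRR1 and OsRR9 always above OsRR6. The remaining overlapping neighbours changed places between libraries, so their order is not fixed by these libraries. The first 4 genes in the order supplied between 74.5 and 82.4% of the family's summed FPKM in every library.

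OsRR6 (LOC_Os04g57720) is known from overexpression in rice, where it blocks shoot regeneration and dwarfs the plant, as a repressor of cytokinin signalling. It had 47 and 39 reads in modd-labelled replicates 1 and 2 and 19 and 25 reads in DongJin, or 6.95, 5.74, 2.80 and 3.66 FPKM. Both modd-labelled libraries were above both DongJin libraries, as they were for 24.7% of all tested genes. The group means were 6.34 ± 0.856 and 3.23 ± 0.608 FPKM (SD, n = 2 each). The log2 ratio was 0.93 ± 0.28 (SE), a 1.9-fold difference with a 95% interval from 1.23 to 2.93. Its unadjusted p was 0.00798 and 5.56% of all tested genes had one as small, and edgeR's adjusted p was 0.144. Replicates differed by 1.19-fold and 1.36-fold within the groups, less than the groups did from each other. As a share of the family's summed FPKM, OsRR6 made up 9.13 and 8.39% in the modd-labelled libraries and 4.28 and 5.405% in DongJin.

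The 2 listed root markers had both modd-labelled libraries above both of DongJin, the same side as OsRR6, without passing the test. This placing was found for 24.7% of all tested genes. No library listed OsNRT2.1, OsYSL15 or LSI2, which are 3 of the 5 root markers, and the sum of the list was 19.1 and 16.9 FPKM in modd-labelled replicates 1 and 2 and 15.4 and 11.7 FPKM in DongJin. OsHKT2;1 was at 5.67 and 4.85 FPKM against 3.77 and 2.16 FPKM (edgeR adjusted p = 0.2), and LSI1 at 13.4 and 12.1 FPKM against 11.6 and 9.56 FPKM (edgeR adjusted p = 0.557). The leaf markers went the other way in sum, at 6151 and 7236 FPKM against 7446 and 8311 FPKM, and none of the 4 passed. Most of that sum is LHCB1. For 3 of the 4 both modd-labelled libraries lay below both of DongJin, as for 25.6% of all tested genes, and for PSBS1 the groups overlapped. The part of tissue make-up in the OsRR6 difference was not tested. Without DongJin replicate 2, OsRR6 had a log2 ratio of 1.16, and without DongJin replicate 1 it was 0.71. Each of these fits leaves a single DongJin library and does not test tissue make-up. In bulk tissue, a change in the number of cells that express a gene cannot be told apart from a change in RNA per cell.

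OsRR2 (LOC_Os02g35180) is known as a direct target that the transcription factor WOX11 represses during crown root growth. It had 172 and 178 reads in the modd-labelled libraries and 186 and 195 in DongJin, at 19.0, 19.6, 20.5 and 21.3 FPKM. Both modd-labelled libraries were below both of DongJin, as they were for 25.6% of all tested genes, and replicates differed by 1.05-fold and 1.09-fold. The log2 ratio was -0.16 ± 0.133 (SE, edgeR adjusted p = 0.586), with a 95% interval of the ratio from 0.729 to 1.1. This was the narrowest interval among the 6 tested members, and a 1.9-fold difference in either direction lies outside it.

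OsRR1 (LOC_Os04g36070) has also been tied to crown root initiation, as a target of an AP2-type factor. It was at 11.6 and 8.14 FPKM in the modd-labelled libraries and 10.3 and 10.1 FPKM in DongJin, so that the modd-labelled libraries lay on both sides of the wild type. Its log2 ratio was -0.10 ± 0.196 (SE, edgeR adjusted p = 0.841), and without modd-labelled replicate 2 the sign turned, to 0.13. OsRR4 (LOC_Os01g72330) showed the same kind of overlap with the wide pair in the other group, at 8.65 and 8.73 FPKM against 7.58 and 10.8 FPKM in DongJin. Its log2 ratio was -0.12 ± 0.221 (SE, edgeR adjusted p = 0.818) and turned to 0.19 without DongJin replicate 2. For both genes the difference between replicates of 1 group (1.4-fold for OsRR1, 1.48-fold for OsRR4) was larger than that between the group means.

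**Figure D2:**
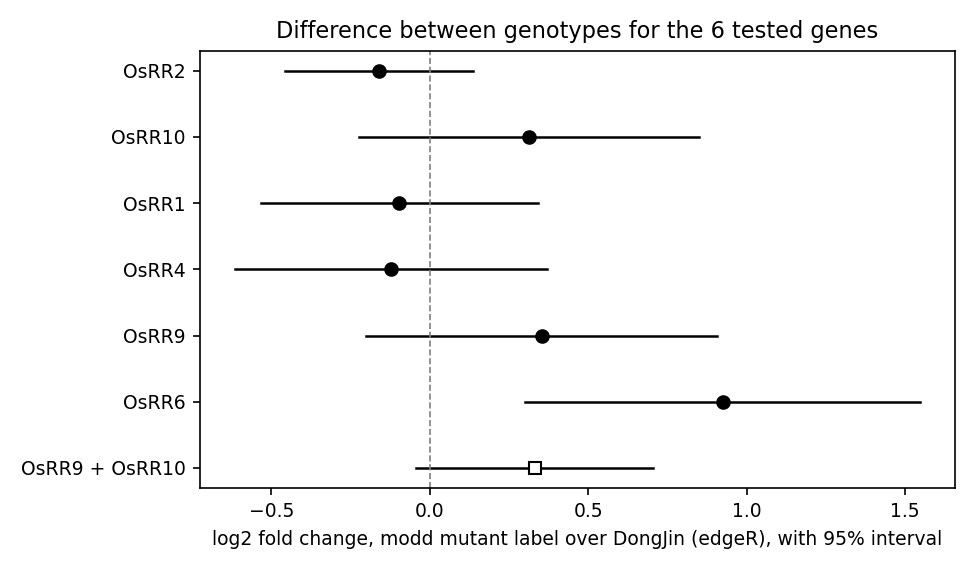
Log2 ratio of each tested type-A regulator, modd-labelled libraries over DongJin, from edgeR (points) with 95% intervals (lines, 2 libraries per group). The open square is OsRR9 and OsRR10 counted together. The interval of OsRR6 runs from 0.30 to 1.55, and those of the other 5 genes and of the pair include 0.

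OsRR9 (LOC_Os11g04720) and OsRR10 (LOC_Os12g04500) are near-identical copies on a duplicated segment of the rice genome, and mutants of both have been reported to tolerate salt better. They were the only 2 members with fractional expected counts, which mark reads that the estimator split between similar sequences. Such fractions occurred in 22.4% of all listed genes. OsRR9 was assigned 52.8 and 51.8 reads in the modd-labelled libraries and 33.2 and 46.8 in DongJin. OsRR10 was assigned 74.2 and 56.2 reads against 59.8 and 42.2. In every library the fractions cancelled: the 2 genes together held 127, 108, 93 and 89 reads in the same order, whole numbers within 0.01 of a read.

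**Figure D3:**
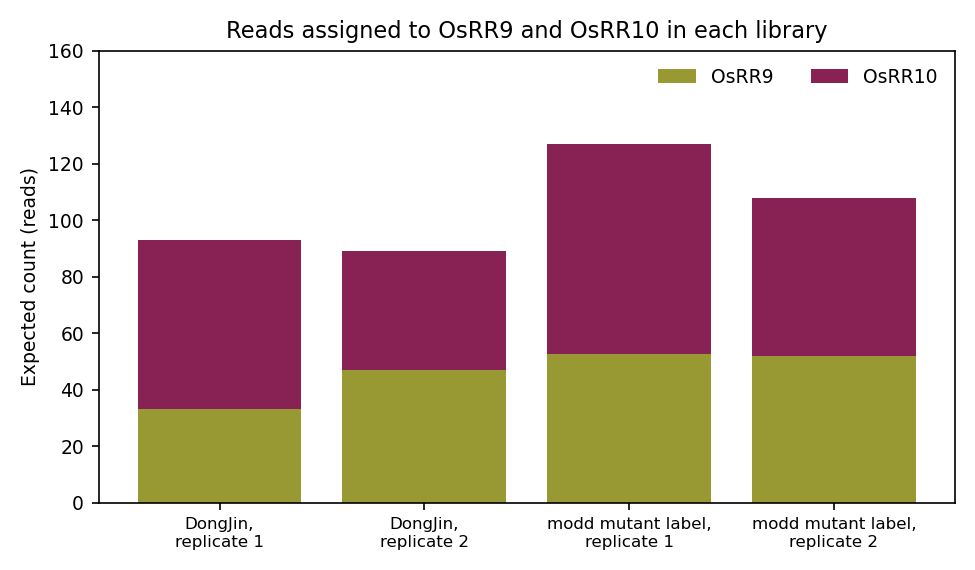
Expected counts assigned to OsRR9 and OsRR10 in each library, stacked, on a linear axis from 0. The totals are 93 and 89 reads in DongJin and 127 and 108 in the modd-labelled libraries, while the boundary between the genes moves within both groups.

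The split varied as much within a group as between groups. OsRR10 received 58.4 and 52.0% of the pair's reads in the modd-labelled libraries and 64.3 and 47.4% in DongJin, means of 55.2 ± 4.5 and 55.9 ± 12% (SD, n = 2 each). The separate values of the 2 genes are less certain than their summed reads, by an amount that was not measured. How far this spread comes from the splitting of shared reads was not tested. Counted singly, OsRR9 had a log2 ratio of 0.35 ± 0.249 (SE, edgeR adjusted p = 0.51) and OsRR10 one of 0.31 ± 0.241 (SE, edgeR adjusted p = 0.548). OsRR9 did not overlap between the groups, at 10.4 and 9.68 FPKM against 6.21 and 8.70 FPKM, while OsRR10 did, at 19.2 and 14.5 FPKM against 15.5 and 10.8 FPKM. Counted together, the pair was at 26.9 ± 3.84 FPKM against 20.6 ± 1.54 FPKM, with the groups apart. That placing was found in TMM-scaled CPM for 24.7% of all tested genes. A read was worth 0.186 to 0.197 FPKM on OsRR9 and 0.257 to 0.259 FPKM on OsRR10. Summed FPKM therefore still depends on the split, and summed reads do not. The log2 ratio of the pair was 0.33 ± 0.168 (SE, edgeR adjusted p = 0.355), a 1.26-fold difference whose 95% interval on the log2 scale runs from -0.04 to 0.71. The standard error was smaller for the sum than for either gene alone. The sum also holds more reads than either gene, so this does not measure the error from splitting.

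OsRR9 also has 2 annotated transcripts, as has OsRR7. In modd-labelled replicate 1 its averaged length was 969.07 bases, against 1013 in the other 3 libraries. One OsRR9 read was worth 0.197 FPKM there and 0.186 to 0.187 FPKM elsewhere, so FPKM slightly raises OsRR9 in that library relative to its reads.

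The other 3 members were too low to test. OsRR3 (LOC_Os02g58350) was not listed in modd-labelled replicate 1 and had 7 reads in replicate 2, and 4 and 7 reads in DongJin. OsRR5 (LOC_Os04g44280) was not listed in modd-labelled replicate 1 and had 1 read in each other library. OsRR7 (LOC_Os07g26720) had 1 read in modd-labelled replicate 1, was not listed in replicate 2, and had 4 and 1 reads in DongJin. A missing row was counted as 0, but the listed rows held only 97.8 to 97.9% of the reads that the FPKM scale implies, so it may not be a true 0. A difference was not detectable at this depth, and no ratio is given for these genes. Of the type-A genes outside the member list, OsRR8, OsRR12 and OsRR13 were listed in no library, and OsRR11 had 3 and 4 reads in the modd-labelled libraries and 3 and 2 in DongJin.

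Groups not overlapping was a common outcome in this comparison. In TMM-scaled CPM it was found for 3 of the 6 tested members (OsRR6 and OsRR9 higher, OsRR2 lower) and for 50.3% of all tested genes.

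The rest of the cytokinin pathway was read from a list of 50 genes, of which 25 were tested and 0 passed over all genes by edgeR, where 0.837% of all tested genes passed. DESeq2 called 1 of the 17 for which it gave an adjusted p, and 350 of the 11856 genes of the whole table with one (1.81% of all tested genes). With limma no gene in the whole table was called. Unadjusted, 6 of the 25 had a p under 0.05, 3 higher and 3 lower in the modd-labelled libraries, or 24% against 16.8% of all tested genes. The median log2 ratio of the 25 was 0.05.

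All 4 receptor genes were tested. The receptor gene OsHK6 (LOC_Os02g50480) was at 12.8 and 13.9 FPKM in the modd-labelled libraries and 17.7 and 16.9 FPKM in DongJin, a log2 ratio of -0.41 ± 0.118 (SE, edgeR adjusted p = 0.126). OsHK3 (LOC_Os01g69920), the most abundant receptor transcript, was at 44.2 and 44.1 FPKM against 52.0 and 49.5 FPKM, a log2 ratio of -0.24 ± 0.0998 (SE, edgeR adjusted p = 0.257). In both genes the modd-labelled libraries lay below those of DongJin, as for 25.6% of all tested genes, the opposite side from OsRR6. The other 2 receptor genes, OsHK4 and OsHK5, had log2 ratios of 0.15 and 0.02, and their groups overlapped in TMM-scaled CPM. In FPKM the groups of OsHK5 did not overlap, at 32.62 and 32.05 against 30.36 and 31.3 FPKM. No share of all tested genes is given for that scale. In TMM-scaled CPM it was at 153 and 149 against 142 and 156, with DongJin replicate 2 the highest. The phosphotransfer genes OsAHP1 and OsAHP2 had log2 ratios of 0.01 and 0.05, and their adjusted p by edgeR was 0.987 and 0.894.

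Of 7 type-B regulators, the activators upstream of the type-A genes, 5 were tested and their log2 ratios lay between -0.10 and 0.21. OsRR21 (LOC_Os03g12350) was by far the most abundant, at 137.1 and 153.3 FPKM in the modd-labelled libraries and 149.7 and 116.9 FPKM in DongJin (edgeR adjusted p = 0.822). That transcript alone exceeded the summed level of the 9 type-A genes in every library. OsRR22 and OsRR23 had log2 ratios of 0.21 and -0.10, and their adjusted p by edgeR was 0.658 and 0.722. OsRR25 and Ehd1, a type-B regulator that promotes flowering, were listed in no library.

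Synthesis genes were low. Isopentenyltransferases make the first cytokinin intermediate or, in the case of OsIPT9 and OsIPT10, are of the kind that modifies transfer RNA. Of the 11 synthesis genes only these 2 were tested, with log2 ratios of -0.24 and 0.20 and adjusted p by edgeR of 0.511 and 0.772. LOG-family enzymes release the active cytokinin base from its nucleotide, and 8 of 11 were tested. LOG (LOC_Os01g40630) had the largest log2 ratio in size among the 25 tested genes of the pathway list, at 94.1 and 145.1 FPKM in modd-labelled replicates 1 and 2 and 223 and 223.6 FPKM in DongJin. Its modd-labelled libraries were both lower and wide apart, and the log2 ratio was -0.95 ± 0.194 (SE, edgeR adjusted p = 0.0814). DESeq2, which called 1.81% of the tested genes, gave it an adjusted p of 0.000168. With single libraries left out, its edgeR adjusted p was 1.34e-05 without modd-labelled replicate 2 (log2 ratio -1.31) and between 0.0828 and 0.622 with each of the other 3 libraries left out in turn (log2 ratio -0.67 without modd-labelled replicate 1). Without modd-labelled replicate 2, 2.94% of all tested genes were called. LOGL10 (LOC_Os10g33900) went the other way, at 12.6 and 9.87 FPKM against 5.43 and 6.49 FPKM, a log2 ratio of 0.86 ± 0.224 (SE, edgeR adjusted p = 0.101). Its edgeR adjusted p was 0.0413 without modd-labelled replicate 2 and 0.0329 without DongJin replicate 2, where 2.28% of all tested genes were called. It was 0.425 without modd-labelled replicate 1 (log2 ratio 0.69) and 0.0755 without DongJin replicate 1.

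Cytokinin oxidases (CKX) degrade the hormone. Of 11 genes 4 were tested, none passed, and all 4 had both modd-labelled libraries above both of DongJin, a placing found for 24.7% of all tested genes. OsCKX11 (LOC_Os08g35860) was at 13.5 and 9.74 FPKM against 6.88 and 6.91 FPKM, a log2 ratio of 0.71 ± 0.196 (SE, edgeR adjusted p = 0.116). Its edgeR adjusted p was 0.0281 without modd-labelled replicate 2 and 0.0371 without DongJin replicate 1, where 12.4% of all tested genes were called. It was 0.604 without modd-labelled replicate 1, with a log2 ratio of 0.47, and 0.0756 without DongJin replicate 2. OsCKX9 (LOC_Os05g31040) was at 7.27 and 6.82 FPKM against 4.97 and 4.83 FPKM, a log2 ratio of 0.48 ± 0.202 (SE, edgeR adjusted p = 0.269). The summed level of the CKX list was 29.7 and 25.1 FPKM in the modd-labelled libraries and 19.3 and 17.8 FPKM in DongJin, the same order of libraries as for the root markers, whose part in this was not tested.

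**Figure D4:**
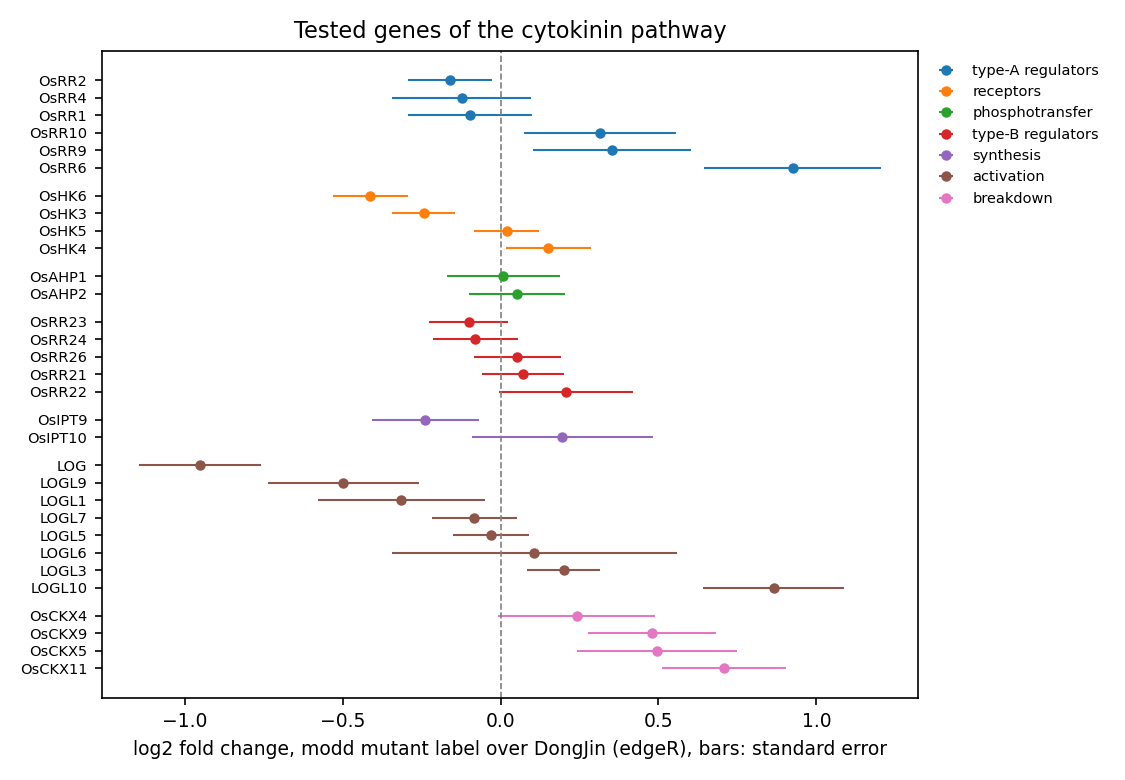
Log2 ratio from edgeR, modd-labelled libraries over DongJin, for the 6 tested type-A regulators and the 25 other tested genes of the cytokinin pathway, coloured by role. Bars are standard errors (2 libraries per group). The 5 type-B regulators lie between -0.10 and 0.21, OsRR6 and LOGL10 lie near 0.9 and LOG near -1.

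Across the 4 libraries, the mean centred log2 level of the tested members was 0.18 and 0.02 in modd-labelled replicates 1 and 2 and -0.20 and 0.0018 in DongJin. The pathway gene with the profile nearest to it was OsRR22, a type-B regulator, at a Euclidean distance of 0.04 log2 units over 4 libraries. OsCKX4 and OsAHP2 came next, at 0.19 and 0.20 log2 units. Of all tested genes, 0.0671% were as near as OsRR22 and 7.66% as near as OsAHP2. OsRR22 was picked as the nearest of 25 genes, which that share does not allow for. The tested members had 3 log2 ratios above 0 and 3 below, so their mean is not a profile that they share.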

How the data were processed

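Libraries of 4 rice seedling samples were grouped by their titles, which also give the replicate numbers. Bowtie, BWA and RSEM are the tools that the submitters' processing notes list, with neither version nor role. The genome build is not given in the sources used here, so no coordinates are printed. Per the file headers, the authors deposited an expected count (estimated reads per gene, shared reads split into fractions), an FPKM value and a length per gene. Tables list only genes above 0.

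Rounded expected counts entered edgeR 4.0.16 (R 4.3.3; filterByExpr defaults, minimum count 10 and minimum total 15; TMM; robust quasi-likelihood; Benjamini-Hochberg over 19365 genes, threshold 0.05). Standard errors are the absolute log2 fold change divided by the square root of F. The common biological coefficient of variation was 10.3%. The OsRR9 and OsRR10 rows were also summed before rounding. Alternatives were RLE and upper-quartile factors, no filter, an FPKM filter of 1, DESeq2 1.42.0, non-robust edgeR, limma 3.58.1 on log2(FPKM + 1) and log2(FPKM + 0.1), a replicate block, and each library left out. A chi-square of counts gave 2.54 and 4.5 per degree of freedom between the libraries of a group, above sampling noise, so all 4 were kept.

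Members and gene lists were chosen with earlier results of these data known. Locus identifiers of the lists come from general knowledge; of the 73 symbols, 48 (8 of the 9 members) were found in the RefSeq gene table (ASM3414082v1), all 48 on the chromosome that the identifier gives. Named are all members, MODD and the markers, then for each pathway list its called genes, the 2 uncalled genes with the smallest adjusted p and the most abundant, and the 3 nearest in profile.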

Additional observations from a re-analysis of the deposited data

How the results depend on the processing

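None of the 6 tested members, and not the OsRR9 and OsRR10 pair, passed under any of the 13 alternatives. DESeq2 gave no adjusted p for OsRR6, OsRR9 or OsRR10 (unadjusted p = 0.068 for OsRR6). The log2 fold change of OsRR6 ran from 0.71 to 1.16 and its adjusted p from 0.0831 to 0.529. With single libraries left out, OsRR1 ran from -0.36 to 0.13, OsRR4 from -0.39 to 0.19, and the median of the 6 members from -0.012 (without DongJin replicate 1) to 0.24 (without replicate 2 labelled modd mutant); OsRR2, OsRR6, OsRR9, OsRR10 and the pair kept their sign in all 13. OsRR9 ran from 0.094 (without DongJin replicate 1) to 0.66 (without DongJin replicate 2), and OsRR10 from 0.10 (without DongJin replicate 2) to 0.56 (without DongJin replicate 1).

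The number of genes called was 162, and 102 with upper-quartile factors, 764 without the count filter, 350 with DESeq2, 0 with limma on either FPKM scale (where 3093 and 3062 genes had an unadjusted p under 0.05), and 144 (without replicate 1 labelled modd mutant) to 2483 (without DongJin replicate 1) with a library left out. Among the 25 tested pathway genes the count of 0 became 2 without the filter (LOGL10 and OsCKX11), 1 with DESeq2 (LOG), and 0 to 3 with a library left out, 3 without replicate 2 labelled modd mutant (LOG, LOGL10 and OsCKX11). Same-numbered libraries did not deviate together (correlation 0.013), so the numbers are not taken as pairs; with the replicate block 870 genes and 1 pathway gene (LOG) were called. MODD's call did not hold with limma (adjusted p = 0.091 and 0.103). The causes were not tested. Tested members had from 19 to 195 reads per library, and this depth limits what could be detected.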
